A study of Mus musculus with 6 samples.

Results

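Collagens are the triple-helical proteins of the extracellular matrix, and each is assembled from 3 chains that are encoded by 1 or several Col genes. Fibrillar collagens form the ropes of bone and skin, of which type I makes up most of the organic matrix that osteoblasts lay down. FACIT collagens (fibril-associated, with interrupted helices) decorate the fibrils, network collagens build basement membranes and lattices, and type VI collagen forms beaded filaments around cells. The mRNA of 44 collagen genes was followed in primary murine osteoblasts stimulated with C5a, the small peptide that is cleaved from complement factor C5 and acts through the receptor C5aR1. The genes were chosen by name: every gene symbol of the form Col, number, a, number that was the only symbol of its probeset, of 19938 genes named this way. They were measured by 46 of the 35556 probesets of the array. Col6a5 and Col6a6 had a pair of probesets each, and the one with the higher mean was used.

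The osteoblasts had grown out of long bones of 3 male wild-type C57BL6/J mice aged 8 to 12 weeks and were of passage 2 to 3. The cultures of both groups are numbered 2, 4 and 5, and since each mouse gave 1 cell pool to both groups, the number is taken here as that of the mouse. After osteogenic differentiation for 14 days, the cells of each mouse were split between a culture that received recombinant murine C5a for 4 h and a culture left unstimulated for 4 h, both in proliferation medium. Each culture gave 1 whole-transcript array, so that 3 C5a arrays stood against 3 unstimulated arrays in 3 pairs of the same animal, and this number limits the precision. The comparison asked which collagen genes respond to C5a within hours. All levels are the deposited log2 values of a probeset, and all changes are C5a minus unstimulated on the log2 scale. Within a sentence, the values of a group follow the mice in the order 2, 4 and 5. Probesets bind with different strength, so the levels of different genes are not compared.

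The array medians lay between 5.89 and 5.93, while the 3 mice differed in cell type markers. All 10 macrophage markers were lowest in mouse 5, and their summed linear level was 13318, 16296 and 1173 with C5a, against 17175, 20946 and 1061 unstimulated. Of the 10 osteoblast markers listed, 6 were measured (Alpl, Ibsp, Sp7, Phex, Dmp1 and Pth1r), and their sum was 4702, 10254 and 1197 with C5a, against 5844, 11983 and 1427 unstimulated. Mouse 5 was the lowest in 5 of these 6 markers, the exception being Sp7. The largest range was that of Ibsp, encoding bone sialoprotein, with mean levels of 11.51, 12.75 and 7.29 in mice 2, 4 and 5. C5ar1, encoding the receptor, was 8.84, 8.77 and 6.09 with C5a, against 9.11, 9.41 and 5.17 unstimulated, and was also lowest in mouse 5. Endothelial sums of 190 to 209 with C5a and 194 to 201 unstimulated, and epithelial sums of 162 to 169 with C5a and 160 to 168 unstimulated, differed little between the arrays. In such bulk samples, fewer cells of a type and less RNA per cell cannot be told apart.

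C5a left most collagen mRNAs near their unstimulated level, with the largest differences in the chains Col4a1 of basement membranes and Col6a3 of beaded filaments. None of the 44 genes passed an adjusted p under 0.05 in limma with the mouse as a block, against a background of 4 of 35556 probesets (0.0112%). An unadjusted p under 0.05 was found for 10 of 44 (22.7%), against 16.2% of all probesets. Among the 21334 probesets at or above the 40th percentile of mean values it was found for 5074, a slightly larger share than among the collagen genes. Without the block the share of the collagen genes lay below that of all probesets (6.82% against 11%). At the thresholds of the study's methods, an unadjusted p under 0.05 and a change of at least 1.5-fold, 2 genes were higher with C5a (Col4a1 and Col6a3, 4.55%), against 1.71% of all probesets and 2.64% of those at or above the 40th percentile of mean values, where all 44 collagen genes lay. No collagen gene was lower at these thresholds, against 1.57% of all probesets. In 4 genes all C5a values lay above all unstimulated values (Col5a3, Col6a3, Col13a1 and Col26a1, 9.09%), against 7.89% of all probesets. In 1 gene, Col27a1 (2.27%), all C5a values lay below, against 7.29% of all probesets. Of the 21334 probesets at or above the 40th percentile, 1964 had all C5a values above and 2211 all below. Counts of 1 to 4 genes lie too close to the background to set the collagens apart from the other probesets.

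The changes of the 44 genes spread around 0. Their median was 0.02, beside 0.01 over all probesets, with 27 positive and 17 negative changes. In mice 2, 4 and 5 the median change was -0.03, 0.10 and -0.02. The C5a culture was above the unstimulated one in all 3 mice for 13 genes, and in 8 of these the change was largest in mouse 2 and smallest in mouse 5. It was below in all 3 mice for 9 genes. These are 29.5% and 20.5% of the collagen genes, against 18.3% and 17.7% of all probesets. Of the 21334 probesets at or above the 40th percentile, 4160 were higher and 5090 lower in all 3 mice. The share of lower collagen genes thus lay above that of all probesets and below that of these probesets. The 95% interval of the change stayed within 1.5-fold in both directions for 37 of 44 genes, and for 82.9% of all probesets. The other 7, for which a change of this size stays within the interval, were Col4a1, Col4a2, Col5a1, Col5a3, Col6a3, Col8a2 and Col12a1.

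**Figure D1:**
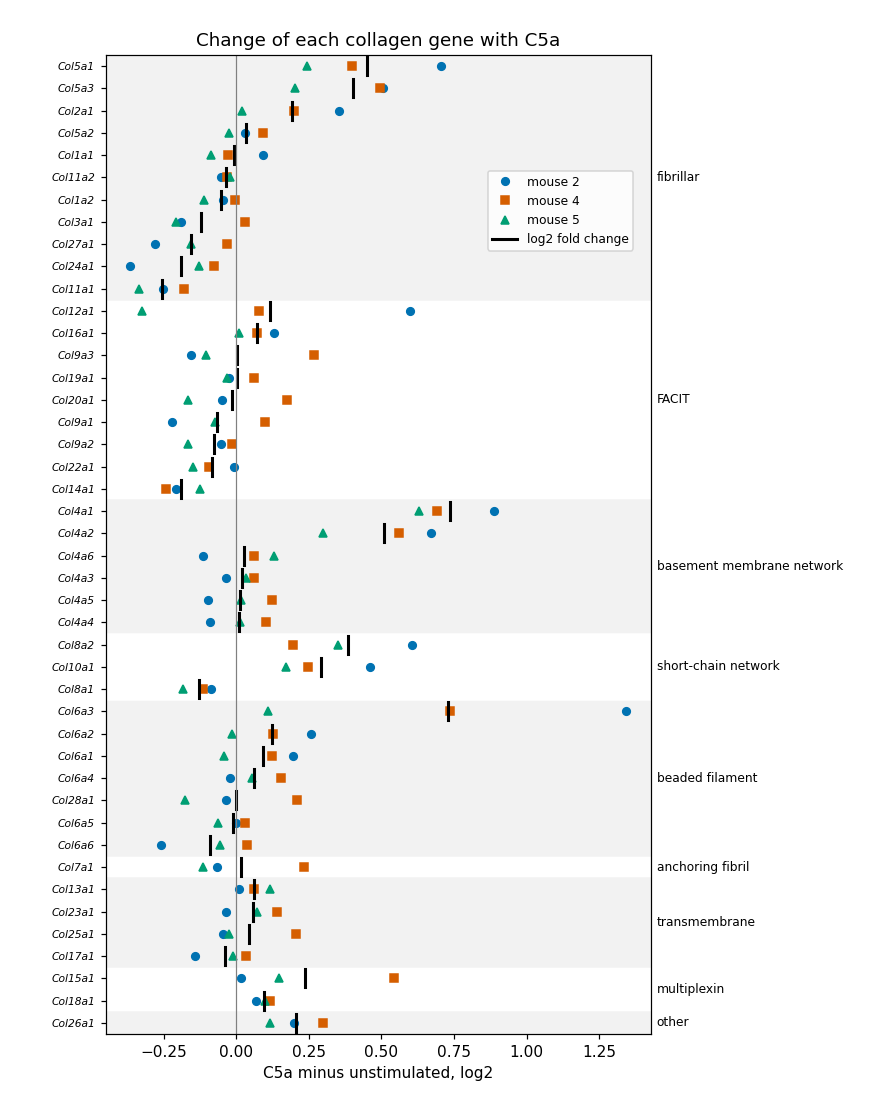
The change of each of the 44 collagen genes (rows, grouped by class) in C5a over unstimulated cultures, as a difference of log2 values (horizontal axis), with 1 point per mouse and a bar at the log2 fold change of the 3 pairs. Most points lie near 0, while Col4a1 and Col4a2 lie to the right in all 3 mice and the points of Col6a3 spread between 0.11 and 1.34.

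The main bone collagens differed little between the groups. Type I collagen is a trimer of chains from Col1a1 and Col1a2. Col1a1 was 13.54, 13.76 and 13.32 with C5a, against 13.45, 13.79 and 13.41 unstimulated, a change of -0.01 (SE 0.07, adjusted p = 0.98). Col1a2 was 13.63, 13.78 and 13.40 with C5a, against 13.67, 13.79 and 13.51 unstimulated, a change of -0.05 (SE 0.07, adjusted p = 0.823). In both genes the values of the groups overlapped, and the 95% intervals were -0.20 to 0.18 for Col1a1 and -0.23 to 0.13 for Col1a2. Col3a1, whose homotrimers join type I fibrils in soft tissue, was 12.70, 12.92 and 12.65 with C5a, against 12.89, 12.89 and 12.86 unstimulated, a change of -0.12 (SE 0.08, adjusted p = 0.591). It was lower with C5a in mice 2 and 5 and slightly higher in mouse 4.

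To show the sequence in front of a main bone collagen, the 250 bases before the RefSeq start of Col1a2 are given (chr6:4505368-4505617, GRCm38.p6, + strand), with matches to the searched motifs in capitals, which are, in order, a pair of GGGCGG matches, a CAGAC match and a CCAAT match.
Col1a2: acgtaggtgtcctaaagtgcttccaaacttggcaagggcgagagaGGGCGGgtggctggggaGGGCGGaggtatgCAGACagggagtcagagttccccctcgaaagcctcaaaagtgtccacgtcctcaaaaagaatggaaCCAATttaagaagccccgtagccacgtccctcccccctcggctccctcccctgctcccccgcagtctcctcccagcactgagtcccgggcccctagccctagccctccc

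Among the minor fibrillar chains, the type V genes had changes of unlike size, whose difference was not tested. Type V collagen is built into type I fibrils and limits their thickness. Col5a1 was 9.96, 10.03 and 9.60 with C5a, against 9.25, 9.63 and 9.36 unstimulated, a change of 0.45 (SE 0.11, adjusted p = 0.161). Col5a3 was 8.63, 8.75 and 8.44 with C5a, against 8.12, 8.26 and 8.24 unstimulated, a change of 0.40 (SE 0.09, adjusted p = 0.149). Both were higher with C5a in all 3 mice, least in mouse 5, and the values of Col5a3 did not overlap between the groups. Col5a2, which supplies a further chain of type V trimers, was 10.84, 11.26 and 11.11 with C5a, against 10.80, 11.17 and 11.14 unstimulated, a change of 0.03 (SE 0.07, adjusted p = 0.907), and differed little in any mouse.

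The fibrillar chains of cartilage had changes of opposite sign, and none passed the thresholds of the methods. Col2a1, the type II chain of cartilage, was 9.17, 9.71 and 8.61 with C5a, against 8.82, 9.51 and 8.59 unstimulated, a change of 0.19 (SE 0.09, adjusted p = 0.417). Col11a1, a type XI chain that nucleates cartilage fibrils, was 8.92, 10.23 and 9.72 with C5a, against 9.17, 10.41 and 10.05 unstimulated, a change of -0.26 (SE 0.07, adjusted p = 0.193). Col2a1 was thus higher with C5a in all 3 mice and Col11a1 lower in all 3, with differences between mice that exceeded both changes. Its partner Col11a2 changed by -0.04. Sox9, the transcription factor of chondrocytes, was lower at the thresholds of the methods (-0.71, adjusted p = 0.0986), and the summed chondrocyte markers were 9481, 6550 and 9976 with C5a, against 10506, 7683 and 10869 unstimulated. Comp alone, which is also among the fibril partners, made up 77.1% to 91.3% of this sum. The other 7 markers summed to 827, 1230 and 1041 with C5a, against 1226, 1757 and 1425 unstimulated. Sox9 is among these 7 and had the highest values of them, so this sum is not separate from its change. Of all 8 markers, 3 had positive and 5 negative changes. The part of these markers in the values of Col2a1 and Col11a1 was not tested. Col24a1, a fibrillar gene known from developing bone, was 7.10, 7.39 and 7.13 with C5a, against 7.46, 7.46 and 7.26 unstimulated, a change of -0.19 (SE 0.09, adjusted p = 0.398). Col27a1 changed by -0.16 (SE 0.08, adjusted p = 0.456). Over all 11 fibrillar genes the median change was -0.04, with 4 positive and 7 negative, and none passed the thresholds of the methods.

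Basement membrane collagen gave the smallest p of the 44 genes. Type IV collagen forms the sheet-like network of basement membranes, and its most widespread trimer combines chains of Col4a1 and Col4a2. Col4a1 was 9.17, 9.83 and 10.16 with C5a, against 8.29, 9.14 and 9.54 unstimulated. Col4a2 was 8.92, 9.29 and 9.65 with C5a, against 8.25, 8.73 and 9.35 unstimulated. Each C5a culture was above the unstimulated culture of its own mouse, although the groups overlapped, and mouse 2 was lowest and mouse 5 highest under both conditions. The changes within mice 2, 4 and 5 were 0.89, 0.69 and 0.63 for Col4a1 and 0.67, 0.56 and 0.30 for Col4a2.

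The change of Col4a1 was 0.74 (SE 0.08, adjusted p = 0.0869), with a 95% interval of 0.52 to 0.95, and that of Col4a2 was 0.51 (SE 0.10, adjusted p = 0.124). Col4a1 was past the thresholds of the methods with a fold change of 1.66, and Col4a2 stayed short of them at 1.42. Without the mouse as a block, the unadjusted p of Col4a1 was 0.106, and the gene no longer passed the thresholds, while it passed them when each mouse in turn was left out. Among its 11 alternatives the adjusted p of Col4a1 ran from 0.039, with probesets of low value left out, to 0.739. Without mouse 5, Col4a2 passed the thresholds of the methods as well. Markers of smooth muscle and pericytes, cells that lie on basement membranes, had a summed level of 20203, 18721 and 16468 with C5a, against 15156, 15016 and 16288 unstimulated. Acta2 made up 66.2% to 77.3% of this sum, and the other 5 markers summed to 6820, 6209 and 5199 with C5a, against 3443, 3919 and 4790 unstimulated. Of these 6 markers, Tagln (0.70, adjusted p = 0.186) and Cnn1 (0.63, adjusted p = 0.2), which encode actin-binding proteins, were higher at the thresholds of the methods, and 2 of 6 were negative. Tagln and Cnn1 had the highest values in the sum of 5, so that sum mainly repeats their changes. Myh11, Rgs5 and Notch3, the others in it, changed by -0.16, 0.03 and -0.22. The part of these markers in the type IV values was not tested.

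Col4a1 and Col4a2 lie head to head on chromosome 8. By the RefSeq starts used for the promoters, the Col4a2 transcript starts at base 11312805 on the + strand. The Col4a1 transcript starts at base 11312826 on the - strand, so that their first 22 bases overlap. The RefSeq gene record of Col4a1 extends to base 11312889, so the length of the overlap depends on the start used. The stretch of 22 bases is shown because both genes had positive changes in all 3 mice (chr8:11312805-11312826, GRCm38.p6, + strand, with a GGGCGG match in capitals).
Col4a1/Col4a2: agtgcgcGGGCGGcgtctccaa

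The other type IV genes, Col4a3, Col4a4, Col4a5 and Col4a6, encode chains of the networks of kidney, lung and other tissues. Their changes were 0.02, 0.01, 0.01 and 0.03, and in each of them the C5a culture of mouse 2 was below its unstimulated culture. The head-to-head pairs Col4a3 with Col4a4 and Col4a5 with Col4a6 thus had changes near 0.

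**Figure D2:**
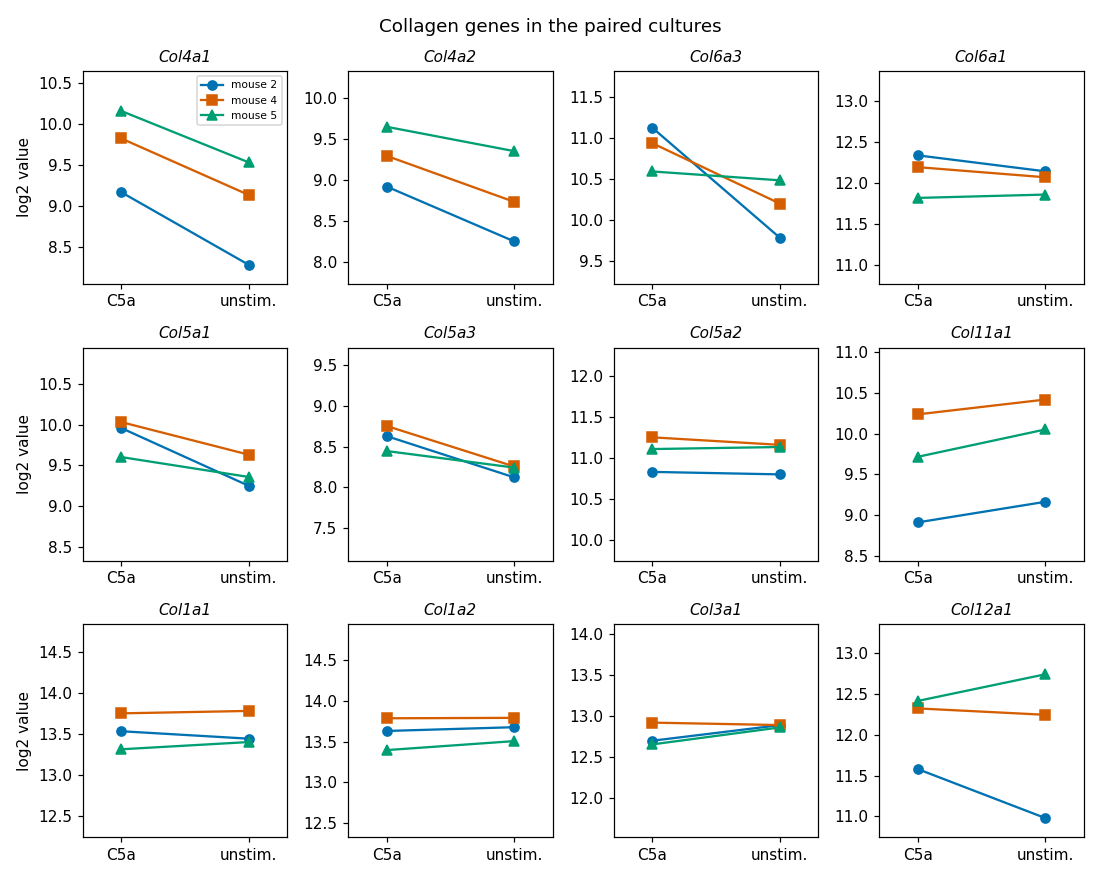
Log2 value (vertical axis, the same span in every panel) of 12 collagen genes in the C5a culture (left) and the unstimulated culture (right), with 1 line per mouse. The lines of Col4a1 run parallel with a change of 0.89, 0.69 and 0.63 in mice 2, 4 and 5, those of Col6a3 cross, and those of Col1a1 and Col1a2 are nearly flat.

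Of the 7 beaded filament genes, Col6a3 had the largest change. Type VI collagen combines a chain each of Col6a1, Col6a2 and Col6a3 and surrounds cells with a microfibrillar mesh. Col6a3 was 11.13, 10.94 and 10.60 with C5a, against 9.79, 10.20 and 10.49 unstimulated, and the groups did not overlap. The change within mice 2, 4 and 5 was 1.34, 0.74 and 0.11, large in mouse 2 and small in mouse 5. Mouse 2 was the highest of the C5a cultures and the lowest of the unstimulated ones.

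The fitted change of Col6a3 was 0.73 (SE 0.24, adjusted p = 0.247), with a 95% interval of 0.10 to 1.36 and a fold change of 1.66. It passed the thresholds of the methods. Without mouse 2 the change was 0.42 and without mouse 4 it was 0.73, and in neither case were the thresholds passed, nor in a paired t-test per probeset. Without mouse 5 it was 1.04 and passed them.

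Col6a1 was 12.34, 12.20 and 11.82 with C5a, against 12.15, 12.07 and 11.86 unstimulated, a change of 0.09 (SE 0.08, adjusted p = 0.696). Col6a2 was 12.13, 12.06 and 11.60 with C5a, against 11.88, 11.93 and 11.61 unstimulated, a change of 0.12 (SE 0.08, adjusted p = 0.595). In both genes the order of the mice was that of Col6a3, with 0.20, 0.12 and -0.04 for Col6a1 and 0.26, 0.13 and -0.01 for Col6a2, at a smaller size. The other genes of the class, Col6a4, Col6a5, Col6a6 and Col28a1, changed by 0.06, -0.01, -0.09 and 0.00. The second probesets of Col6a5 and Col6a6, of lower value, changed by -0.11 and -0.01.

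The sequences before the starts of Col6a3 and Col6a1 are shown because chains of the same protein had changes of unlike size. Each is the 250 bases before the RefSeq start used, on the - strand of GRCm38.p6 (chr1:90843972-90844221 for Col6a3 and chr10:76726045-76726294 for Col6a1). The RefSeq gene record of Col6a3 extends to base 90844001, so the last bases shown for it lie within that record. The capitals mark the matches, which are CAGAC on the opposite strand (read here as GTCTG) in Col6a3 and TGACTCA in Col6a1. Col6a2, which is not shown, changed by 0.12 and also has a CAGAC match before a start. CAGAC was present in 53.2% of 27025 genes. Whether the matches bear on the changes was not tested.
Col6a3: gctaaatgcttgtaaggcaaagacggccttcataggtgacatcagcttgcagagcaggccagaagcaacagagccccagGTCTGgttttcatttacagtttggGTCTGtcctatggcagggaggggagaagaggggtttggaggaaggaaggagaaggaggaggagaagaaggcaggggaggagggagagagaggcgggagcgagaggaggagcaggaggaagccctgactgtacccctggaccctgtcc
Col6a1: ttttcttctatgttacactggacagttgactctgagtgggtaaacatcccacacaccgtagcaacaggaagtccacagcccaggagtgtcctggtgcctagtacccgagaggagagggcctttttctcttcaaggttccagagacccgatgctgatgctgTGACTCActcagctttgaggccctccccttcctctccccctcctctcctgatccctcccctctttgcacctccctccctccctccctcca

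Promoter windows from RefSeq, of 250 bases before to 50 bases after the start, were used for 35 of the 44 genes, 3 of which had several windows. Searched on both strands, GGGCGG, the core bound by Sp1, was present in 22 of 35 collagen genes (62.9%), against 38.2% of 27025 genes. CCAAT was present in 13 of 35 (37.1%), against 41.1%, and TATAAA in 5 of 35 (14.3%), against 15.7%. CAGAC, the core of SMAD sites preceded by C, was present in 20 of 35 (57.1%), against 53.2%. TGACTCA, the motif of AP-1, was found in Col6a1 alone (2.86%), against 5.95%. In 2 places a pair of motifs overlapped. These matches are letters in a window and are not measured binding.

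Short-chain network collagens had positive changes in 2 of 3 genes. Types VIII and X form hexagonal lattices, in vessel walls and the cornea for type VIII and in hypertrophic cartilage for type X. Col8a2 changed by 0.38 (SE 0.10, adjusted p = 0.177) and was higher in all 3 mice. Its partner Col8a1 was 8.84, 11.61 and 10.94 with C5a, against 8.92, 11.72 and 11.12 unstimulated, a change of -0.13 (SE 0.07, adjusted p = 0.477), and was lower in all 3 mice. Col10a1, the marker of hypertrophic chondrocytes, was 6.89, 8.86 and 6.78 with C5a, against 6.43, 8.62 and 6.61 unstimulated, a change of 0.29 (SE 0.09, adjusted p = 0.21). In all 3 genes the range between the mice, 2.78 in Col8a1, 1.23 in Col8a2 and 2.08 in Col10a1, was larger than the change.

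FACIT collagens showed no common direction, with a median of -0.01 over 9 genes. Col12a1, which links type I fibrils to the surrounding matrix in bone and tendon, was 11.58, 12.32 and 12.41 with C5a, against 10.98, 12.24 and 12.74 unstimulated, a change of 0.12 (SE 0.19, adjusted p = 0.863). It was higher with C5a in mouse 2 by 0.60 and lower in mouse 5 (-0.33), and the sign of the fitted change turned to -0.12 without mouse 2. Col14a1, a related chain of dense connective tissue, was 8.52, 9.34 and 10.40 with C5a, against 8.72, 9.58 and 10.53 unstimulated, a change of -0.19 (SE 0.07, adjusted p = 0.286), and was lower in all 3 mice. The remaining 7 genes, Col9a1, Col9a2, Col9a3, Col16a1, Col19a1, Col20a1 and Col22a1, changed by -0.08 to 0.07.

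The small classes added little. The multiplexins Col15a1 and Col18a1, of which Col18a1 encodes the precursor of endostatin, changed by 0.24 and 0.09 and were higher with C5a in all 3 mice. The transmembrane collagens Col13a1, Col17a1, Col23a1 and Col25a1 changed by -0.04 to 0.06, and the groups of Col13a1 did not overlap, at values within a narrow range. Col7a1, of the anchoring fibrils of skin, changed by 0.02. Col26a1 changed by 0.21 (SE 0.07, adjusted p = 0.283), also without overlap.

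The range between the mice was larger than the change with C5a for most collagen genes, as for most probesets. The range between the means of the 3 mice exceeded the size of the change for 37 of 44 genes, and for 74.1% of all probesets. A range of 3 means and the size of 1 mean change are unlike measures, so this count does not weigh the mice against C5a. The F test of the mouse term in the same limma fit called 8 of 44 genes at an adjusted p under 0.05 (18.2%), against 2.5% of all probesets and 4.03% of those at or above the 40th percentile of mean values. Each mouse gave 1 cell pool, so the animal and the preparation of its cells cannot be told apart.

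Col1a1, Col1a2 and Col3a1 were not among the genes called. Col8a1 had mean levels of 8.88, 11.66 and 11.03 in mice 2, 4 and 5, a range of 2.78 (adjusted p = 0.00248), and Col10a1 of 6.66, 8.74 and 6.69 (adjusted p = 0.00548). Col14a1 had 8.62, 9.46 and 10.47 (adjusted p = 0.00602) and Col11a1 9.04, 10.32 and 9.88 (adjusted p = 0.0144). Mouse 4 was thus the highest in Col8a1, Col10a1 and Col11a1, and mouse 5 in Col14a1. Col4a1 had 8.73, 9.48 and 9.85 (adjusted p = 0.0267), Col15a1 6.91, 8.29 and 7.02 (adjusted p = 0.033), Col8a2 8.75, 9.98 and 9.49 (adjusted p = 0.0358) and Col2a1 9.0, 9.61 and 8.60 (adjusted p = 0.0437). Mouse 2 was lowest in 7 of these 8 genes, the exception being Col2a1.

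By class, all 3 short-chain genes were called, while 2 of 11 fibrillar genes and 0 of 7 beaded filament genes were. Mouse 5 was the lowest in 9 of 11 fibrillar genes and the highest in 5 of 6 type IV genes. Over all 35556 probesets it was the lowest in 10098 and the highest in 14552. The type IV count includes Col4a4, whose range between the mice was only 0.009. Col1a1 had mean levels of 13.49, 13.77 and 13.36 in mice 2, 4 and 5 (adjusted p = 0.2), and Col1a2 of 13.65, 13.79 and 13.45 (adjusted p = 0.257). The mouse term also called 9 of 10 macrophage markers and all 6 osteoblast markers measured, and the part of these cells in the collagen levels was not tested. When the arrays of mouse 2, 4 or 5 were left out, 1, 4 and 1 collagen genes were called (2.27%, 9.09% and 2.27%), against 0.658%, 1.75% and 0.104% of all probesets.

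**Figure D3:**
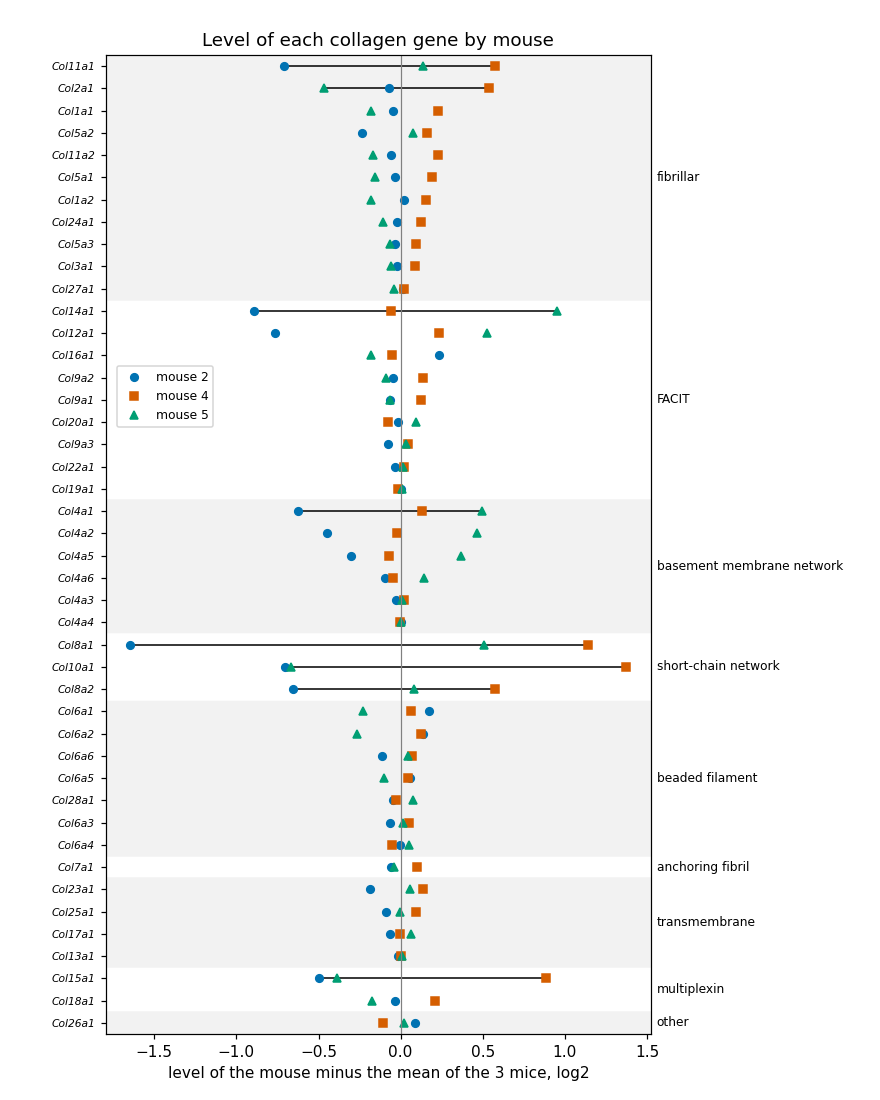
Level of each mouse (mean of its C5a and unstimulated culture) minus the mean of the 3 mice for the 44 collagen genes, on the log2 scale (horizontal axis), in rows grouped by class. A black line joins the mice in the 8 genes called by the mouse term, among them all 3 short-chain genes, where the range reached 2.78 in Col8a1.

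**Figure D4:**
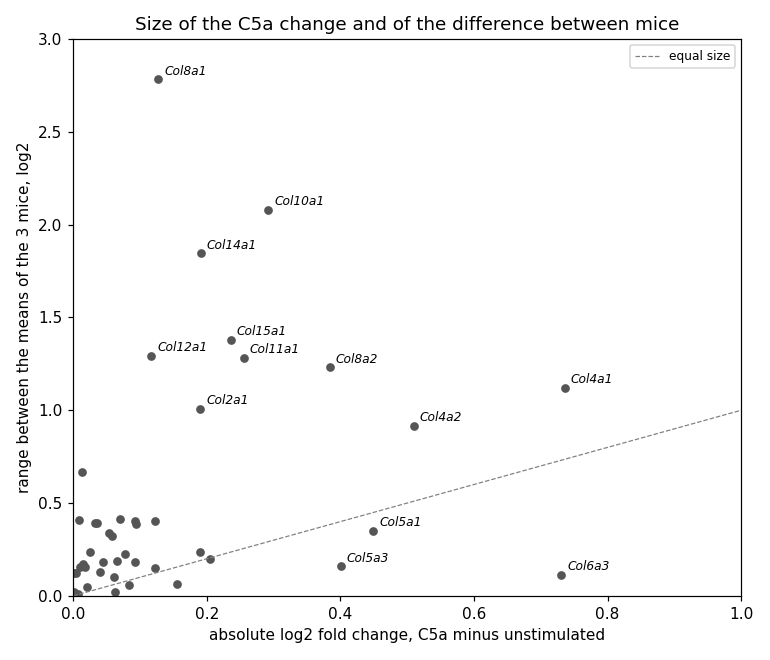
Range between the means of the 3 mice (vertical axis) against the absolute log2 fold change with C5a (horizontal axis) for the 44 collagen genes, 1 point per gene, with different spans of the 2 axes and a dashed line where both are equal. For 37 genes the point lies above the line, as it would for 74.1% of all probesets. Col6a3, with a range of 0.11 and a change of 0.73, lies farthest below it.

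The genes that modify, secrete, cross-link, bind and degrade collagen were followed by role. Of 62 such genes 58 were measured, none passed an adjusted p under 0.05, 3 were higher (5.17%) and 0 lower at the thresholds of the methods, against 1.71% higher and 1.57% lower among all probesets and 2.64% higher among those at or above the 40th percentile. The median change was -0.03. In all 3 mice 21 genes (36.2%) were lower with C5a and 9 (15.5%) higher, against 17.7% and 18.3% of all probesets. Of the 58 genes, 56 lay at or above the 40th percentile. Of the 21334 probesets there, 5090 were lower and 4160 higher in all 3 mice, so lower was the more frequent direction there too. Plod3, whose enzyme hydroxylates and glycosylates lysines of the collagen chain, was 11.33, 10.83 and 10.80 with C5a, against 10.65, 10.28 and 10.20 unstimulated, a change of 0.61 (SE 0.07, adjusted p = 0.0869). Ddr1, a receptor tyrosine kinase that binds collagen, was 8.92, 8.84 and 8.85 with C5a, against 8.23, 8.14 and 8.48 unstimulated, a change of 0.59 (SE 0.10, adjusted p = 0.11). Tgfbi, an extracellular protein that binds collagens and is induced by TGF-β, was 11.17, 11.00 and 10.30 with C5a, against 8.27, 9.08 and 8.27 unstimulated, a change of 2.28 (SE 0.21, adjusted p = 0.0796). In all 3 genes the groups did not overlap.

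No other gene of these lists passed the thresholds. The 19 genes of hydroxylation, folding and secretion had a median change of -0.04, and the 7 of propeptide cleavage of 0.04. The 4 lysyl oxidase genes measured, which encode cross-linking enzymes, all had positive changes with a median of 0.20. Among them, Loxl4 was lower with C5a in mice 4 and 5 and Loxl1 in mouse 4. All 6 collagenases and gelatinases had negative changes with a median of -0.07. Among these 6 genes, Mmp9 was higher with C5a in mice 4 and 5 and Ctsk in mouse 5, and Mmp8 lay below the 40th percentile of mean values. Over all 35556 probesets, 18670 changes were positive and 16886 negative. The 9 receptors and the 13 fibril partners had medians of -0.05 and -0.04.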

How the data were processed

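RNA of 6 osteoblast cultures was hybridised to whole-transcript arrays. The authors summarized the probes of each probeset to log2 values by the robust multiarray average (RMA), and the submitters' processing notes name Affymetrix Expression Console, without a version. The deposited log2 values were used without further normalization or filter. It is not given in the sources used here if the normalization included further arrays. Probesets were named through the platform annotation: 21789 name 1 gene, 1621 several and 12146 none. All 44 collagen genes have an Entrez ID in the mouse gene table.

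All 35556 probesets were fitted with limma 3.58.1 in R 4.3.3 (lmFit and eBayes), with the mouse as a block and Benjamini-Hochberg adjustment over all of them. The steps were tested on simulated data. The sample titles give the numbers 2, 4 and 5 in both groups without naming what they count, and the series' design states that the cell pool of each mouse was divided between the groups, so the number was read as the mouse. Both cultures of a mouse deviated from their group means alike (r = 0.495 to 0.684 over all probesets), unlike a C5a and an unstimulated culture of different mice (r = -0.446 to -0.0353). The fold change limit of the methods was read as at least 1.5-fold.

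The members, gene lists and tests were chosen with earlier results of these data known. Values of all arrays are given for collagen genes past a threshold, the 3 per direction with the smallest p, the 5 with the smallest p of the mouse term, and 14 chains chosen by their role. Other collagen genes are named with their change, and pathway genes if past the thresholds of the methods. Exceptions are Loxl1, Loxl4, Mmp8, Mmp9, Mmp13 and Ctsk, named to qualify the summaries of their lists. These genes, C5ar1, and the markers Ibsp, Sp7, Sox9, Comp, Acta2, Tagln, Cnn1, Myh11, Rgs5 and Notch3 were named after their values were seen. Alternatives were no block, the methods' t-test and its paired form, eBayes with an intensity trend and robust option, a minimum mean at the 40th percentile, median centring, quantile normalization, another probeset per gene, and leaving out each mouse. RefSeq promoter windows (GRCm38.p6) were searched for 5 motifs.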

Additional observations from a re-analysis of the deposited data

How the results depend on the processing

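Without the mouse as a block, 1 collagen gene (Col6a3) in place of 2 was higher at the thresholds of the methods. The count was also 1 with the methods' t-test (Col6a3) and with the paired t-test (Col4a1), and ran from 1 to 3 when a mouse was left out. No collagen gene was lower under any of these alternatives. With the filter at the 40th percentile, where fewer probesets were tested, 1 collagen gene (Col4a1, adjusted p = 0.039) passed an adjusted p under 0.05, and 373 probesets in all did so, against 4 without the filter. The adjusted count for collagen genes was 0 under the other alternatives, with 3 collagen genes (6.82%) at an unadjusted p under 0.05 without the block, against 11% of all probesets, and 2 (4.55%) with the methods' t-test, against 8.76%. This share lay above that of all probesets with the block (22.7% against 16.2%) and below it in these settings. With the block the collagen share was slightly below that of the probesets at or above the 40th percentile (5074 of 21334). It was 13.6% against 9.27% with the paired t-test, 18.2% against 15.3% with the trend, 18.2% against 22.5% with the filter, and 9.09%, 13.6% and 13.6% without mouse 2, 4 and 5, against 10.8%, 16.2% and 12.3%. The methods' thresholds gave 523 higher and 400 lower probesets without the block, 374 and 291 with the methods' t-test, 226 and 291 with the paired t-test, and 1009 and 745 without mouse 4, against 608 and 558. The mouse term called 1 to 4 collagen genes when a mouse was left out, against 8, and 7 to 9 under the other alternatives with a mouse term (trend, filter, centring, quantile normalization and other probeset). The median change of the collagen genes ran from -0.01 to 0.05 when a mouse was left out. Col12a1 turned sign without mouse 2 and ran from -0.12 to 0.34 over the fits that leave out a mouse. Col1a1, close to 0 in each fit, turned sign without mouse 4 and without mouse 5 and ran from -0.059 to 0.031. Of the other values of named genes under the alternatives, 168 kept their direction and side of the unadjusted threshold, 26 lost the threshold and 1 gained it. Many of the 168 could not differ. The setting with another probeset repeats the main values of these genes, and settings that change only the test keep the direction. Only genes with an unadjusted p under 0.05 in the main fit could lose the threshold. The 3 pairs of arrays limit all tests.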
